A study of Mus musculus with 24 samples.

Results

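Brown fat burns fuel to make heat, and the comparison is of brown adipose tissue from NZO/HiBomDife mice with that from C57BL/6 (B6) mice. NZO, New Zealand Obese, is an inbred strain known for polygenic obesity and a tendency to diabetes, and C57BL/6 is the common laboratory strain. All mice were male, ate a diet rich in fat (45%) and were 6 weeks old when sampled, per the labels, so both groups share sex, diet and age. The comparison holds the 4 arrays titled NZO_BAT and the 4 titled B6_BAT, 8 of the 24 arrays of a series that also covers gonadal white fat (gWAT) and quadriceps muscle. These 8 arrays were chosen by their titles alone. Nothing in the labels says that the 4 samples of a strain were 4 animals. A p-value therefore reflects the spread among these samples, and some of that spread may be technical.

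A brown adipocyte holds many small fat droplets and many mitochondria. Its uncoupling protein, UCP1, lets protons back across the inner mitochondrial membrane without making ATP, so that the energy of burnt fatty acids and glucose leaves as heat. Noradrenaline from sympathetic nerves starts this through beta-adrenergic receptors and cyclic AMP, and transcriptional regulators such as PRDM16, EBF2, the PGC-1 coactivators and IRF4 set the brown programme. The depot also holds vessels, immune cells and nerve ends, and muscle lies directly beside it.

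Each array held 1 RNA labelled with the dye Cy3 on probes of 60 bases. A level is the log2 processed signal of a probe relative to the 75th percentile of its array, and a difference is NZO minus B6 on that log2 scale. Of several probes of a gene, the brightest over all 24 arrays was used. Levels by array are given for NZO 009, 011, 003 and 007 and for B6 010, 011, 015 and 009, in that order, and levels of different probes were not set against each other. A gene was tested where either strain had its probe well above background on every array, which held for 20811 of 34947 named genes, and it was called where limma's adjusted p, by the Benjamini-Hochberg method over all genes tested, was under 0.05.

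Limma called 3248 of the 20811 genes, 15.6%, with 1570 higher (7.54%) and 1678 lower (8.06%) in NZO. The median difference over all genes tested was -0.0033. Probes well above background made up 52.9% to 59.9% of an array, and the 75th percentile lay between 134 and 178.0 units. The arrays were read on 5 slides and 2 scan days. Slide 3 alone held both strains (NZO 007 and B6 015), and scan day 1 held NZO 003 and B6 010. With the slide as a fixed block, the strain difference came from the slide 3 pair alone and 240 genes were called. With the slide as a random block, 2972 were called. Without NZO 009, 2198 genes were called, and with the 6 arrays of scan day 2 only, 2069.

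The label of the tissue was checked against brown adipocyte markers. Ucp1 (chr8:85821788-85821847 on the mouse build mm9) averaged 9.81 ± 0.15 in NZO and 10.20 ± 0.16 in B6 brown fat (SD, n = 4 each). In gonadal white fat the same probe averaged 3.71 in NZO and -4.08 in B6. Cidea, a droplet protein gene of brown fat, averaged 10.30 ± 0.11 in NZO and 10.37 ± 0.13 in B6 brown fat, against 4.46 and 0.71 in NZO and B6 gonadal white fat. Cox8b, a cytochrome oxidase subunit of brown fat and muscle, stood at 9.91 ± 0.10 in NZO and 9.91 ± 0.16 in B6. All 8 arrays carried Ucp1, Cidea and Cox8b at high levels. Of the other listed markers, Prdm16 averaged 0.88 in NZO and 0.66 in B6 brown fat, against -2.11 and -2.41 in gonadal white fat. Elovl3 averaged -1.78 ± 2.89 in NZO and 3.20 ± 0.54 in B6 brown fat, against -3.16 and -4.76 in gonadal white fat. On NZO 003 it was -5.48, below the NZO gonadal white fat mean. Ebf2 is given below by its difference only.

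Muscle-fibre transcripts set the strains apart. B6 brown fat held contractile and calcium-handling transcripts that were far lower in NZO, and the genes that are high in muscle are therefore set apart. A gene was called muscle-high where its mean in NZO quadriceps was at least 4-fold its mean in NZO brown fat, which took 1139 of the 20811 genes and left 19672. Because that rule uses the NZO brown fat arrays, which are also 1 side of the comparison, counts within and outside the muscle-high genes are a description only. Of these 1139 genes 394 were called (34.6%), 352 lower (30.9%) and 42 higher (3.69%) in NZO, with a median difference of -0.34. Just outside the limit, the 85 genes that were between 1.9 and 2 log2 units higher in quadriceps had a median of -0.10. The 79 genes just inside it, up to 2.1, had a median of -0.16.

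Of 42 listed muscle-fibre genes, 40 were tested and 34 fell in NZO brown fat (85%, beside 8.06% of all genes). The median difference was -5.78 and none was higher. Of these 40, 39 were muscle-high, and the list is described here as a set that the split itself selects. Tnnc2, the fast troponin C, had levels of 1.005, -1.27, -0.03 and -0.75 on the NZO arrays, against 7.86, 5.84, 6.48 and 6.56 on the B6 arrays. Every B6 array exceeded every NZO array by over 4 log2 units (arrays of the strains did not overlap for 22.1% of all genes tested), and the difference was -6.95 (SE 0.56, adjusted p = 1.36e-04). In quadriceps the same probe averaged 10.68 in NZO and 10.74 in B6, so its brown fat level was 0.051% of the quadriceps level in NZO and 6.02% in B6.

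Acta1, skeletal alpha-actin, had levels of 0.75, -2.51, -1.43 and -2.22 in NZO, against 6.88, 4.95, 5.66 and 5.34 in B6, a difference of -7.06 (SE 0.73). Its brown fat level was 0.023% of the quadriceps level in NZO and 3.18% in B6. Cacna1s, the calcium channel subunit of muscle excitation, stood at -3.19, -3.53, -4.30 and -3.04 in NZO, against 3.87, 1.49, 2.49 and 2.38 in B6. NZO 009 was the highest NZO array for Tnnc2 and Acta1 but not for Cacna1s, and B6 010 was the highest and B6 011 the lowest B6 array for all 3. Cacna1s was well above background on 3 of the 4 NZO arrays. Summed over the 40 probes on the linear scale, the muscle list came to between 36.4 and 60.7 times the array's 75th percentile in NZO, and to between 361 and 1365 times in B6, where B6 010 held the top value. In such bulk tissue, fewer cells of a type and less RNA per cell cannot be told apart.

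The roles within the muscle list did not all move alike. All 11 fast contractile genes fell (median -6.95), as did all 10 shared sarcomere genes (median -5.37), among them the giant spring protein gene Ttn, whose 4 tested probes gave differences of -8.05 to -1.25. Of 7 genes of energy supply, 6 fell, including the mitochondrial creatine kinase Ckmt2, at least 70.9-fold lower, and the muscle enolase Eno3 (difference -2.50). Of 6 calcium and excitation genes, 4 fell. Of 6 slow contractile genes only 3 fell, one of them Myl3, the slow light chain (-2.37, SE 0.61), and that call ended without NZO 009, NZO 003, B6 010 or B6 009 (adjusted p 0.0526 to 0.0873).

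Some muscle genes were well above background in both strains and did not pass. Tnnt1, the slow troponin T, had levels of 4.01, 3.04, 2.35 and 3.75 in NZO, against 4.07, 0.04, 1.42 and 2.50 in B6, with overlapping strains and a difference of 1.28 (SE 0.81, adjusted p = 0.349). Myoglobin, Mb, overlapped too, at 1.05, 2.18, -0.04 and 0.78 in NZO and 3.74, 1.25, 1.34 and 2.14 in B6 (difference -1.13, adjusted p = 0.296). Myh7, the slow myosin, ran between -2.68 and -2.02 in NZO and between -2.41 and 3.75 in B6, so single B6 samples differed by several log2 units. Myl1, a fast light chain, was lower in NZO by a smaller margin (4.18, 4.34, 3.72 and 4.14, against 6.97, 6.03, 6.36 and 6.39 in B6), a difference of -2.34. Myosin genes share long stretches of sequence, so signals of single family members are uncertain.

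**Figure D1:**
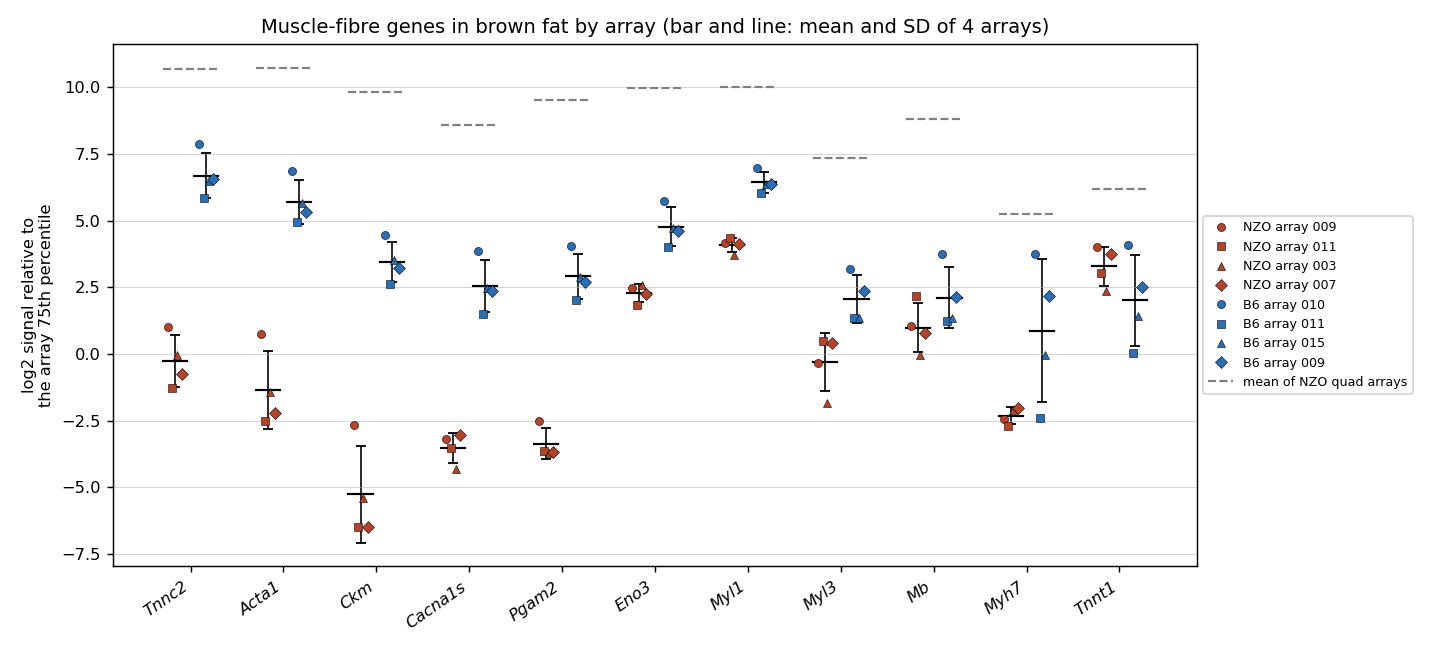
Levels of 11 muscle-fibre genes in brown fat (log2 signal relative to the array's 75th percentile) on each NZO array, left, and each B6 array, right, with the mean and SD of 4 arrays, and dashed lines at the mean of the NZO quadriceps arrays. The strains are far apart for Tnnc2, Acta1 and Ckm and overlap for Tnnt1, Mb and Myh7.

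Outside the muscle-high genes, limma called 2854 of 19672 genes (14.5%), with 1528 higher (7.77%) and 1326 lower (6.74%) in NZO. Of these, 562 were at least 2-fold higher and 495 at least 2-fold lower, 5.37% together (6.55% over all genes tested). The median difference was 0.01. The split took out 352 lower and 42 higher calls, since it removes genes that are low in NZO brown fat. The balance of higher and lower genes left is therefore shaped by the split and is a description only. Gene lists described below were chosen with earlier results of these data known. Their counts are to be read beside the share called over all genes tested, 7.54% higher and 8.06% lower.

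Most thermogenic genes did not pass the test. Of 30 tested genes of heat production and brown fat identity, none rose, 6 fell (8.06% of all genes fell) and 24 did not pass, with a median difference of -0.09. With arrays centred on the median 3 fell. Ucp1 had levels of 9.83, 9.97, 9.62 and 9.81 in NZO, against 10.22, 9.99, 10.37 and 10.21 in B6. Each NZO array was below each B6 array, but the margin was small, 1.31-fold, with a difference of -0.39 (95% interval -0.65 to -0.13) and an adjusted p of 0.0542. It passed without NZO 011 (adjusted p = 0.0466) or B6 011 (adjusted p = 0.0387), and with the slide as a random block (adjusted p = 0.0424).

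Among effectors, Cidea (difference -0.07, 95% interval -0.29 to 0.16) and Cox8b (0.00, -0.24 to 0.24) overlapped between the strains. The deiodinase Dio2, which makes active thyroid hormone inside the cell, was spread widely, at 2.13, 3.49, 0.74 and 2.14 in NZO and 2.61, 1.58, 3.92 and 2.72 in B6, and did not pass (-0.58, SE 0.64). Kcnk3, a potassium channel of brown fat, was lower, at 4.81, 4.83, 4.83 and 4.59 in NZO, against 5.20, 5.16, 5.39 and 5.15 in B6 (1.37-fold, adjusted p = 0.0145). That call held with any 1 array left out. It ended with arrays centred on the median, all 24 arrays in 1 fit, scan day 2 only, and the slide or the title number as a fixed block.

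Elovl3, a fatty acid elongase induced when brown fat is active, varied widely among NZO arrays. Its levels were -2.64, 0.88, -5.48 and 0.12 in NZO, with 3 of the 4 arrays well above background, against 2.66, 2.98, 3.94 and 3.22 in B6. All NZO arrays lay below all B6 arrays, but NZO 011 and NZO 003 differed by over 6 log2 units. The difference was -4.98 (SE 1.27, adjusted p = 0.0331), and the call ended without NZO 009 or any 1 of the 4 B6 arrays (adjusted p 0.0591 to 0.0927).

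Of 11 transcriptional regulators, 2 fell (18.2%, beside 8.06% of all genes). Irf4, which works with PGC-1alpha on thermogenic genes, stood at 0.26, -0.31, 0.37 and 0.11 in NZO, against 1.54, 1.21, 2.18 and 0.99 in B6, with no overlap (2.59-fold lower, SE 0.27 on the log2 scale, adjusted p = 0.0106). Ppargc1b, the PGC-1beta coactivator of mitochondrial genes, stood at 0.13, -0.10, 0.04 and 0.20 in NZO, against 1.66, 0.72, 1.43 and 1.37 in B6 (2.34-fold lower, adjusted p = 0.00423). Its relative Ppargc1a did not pass (2.75, 2.85, 2.01 and 2.67 in NZO, 3.41, 2.54, 3.28 and 2.60 in B6), and neither did Prdm16 (0.21, 95% interval -0.22 to 0.64), Ebf2 (0.28), Pparg (0.15) or Ppara (-0.04).

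Of 9 adrenergic signalling genes, the 2 that fell (22.2%, beside 8.06% of all genes) both encode enzymes that break down cyclic AMP. Pde3b, which insulin activates in fat cells, had levels of 4.33, 4.26, 4.38 and 4.30 in NZO, against 4.94, 5.08, 4.94 and 4.61 in B6 (difference -0.57, adjusted p = 0.0108). The call of Pde3b ended with the same alternatives as that of Kcnk3. Pde4d had a difference of -0.66 (adjusted p = 0.017, and 0.053 without NZO 009, where it was not called). The receptor gene Adrb3 did not pass (6.68, 6.61, 6.38 and 6.91 in NZO, 7.13, 6.90, 6.79 and 6.81 in B6, 95% interval of the difference -0.57 to 0.05), nor did Adrb1 (0.01).

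**Figure D2:**
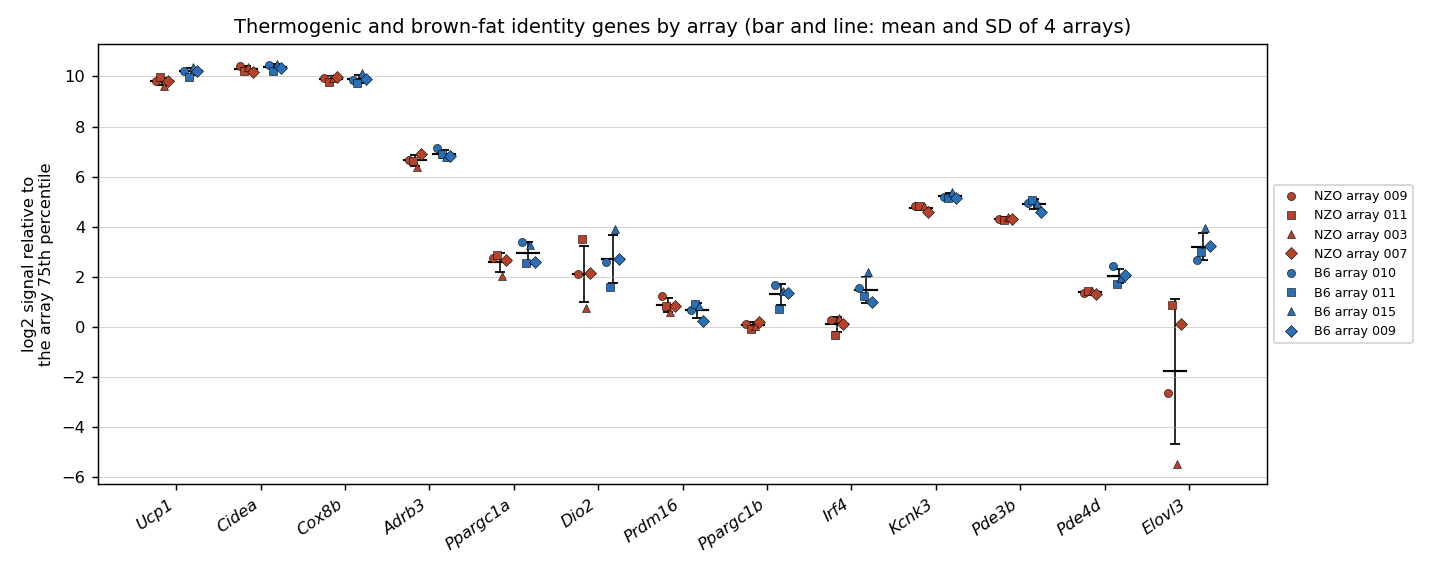
Levels of 13 thermogenic and brown fat identity genes (log2 signal relative to the array's 75th percentile) on each NZO array, left, and each B6 array, right, with the mean and SD of 4 arrays. Ucp1, Cidea and Cox8b are high in both strains, Irf4 and Ppargc1b are lower in NZO, and Elovl3 is scattered among the NZO arrays.

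Brown fat makes fatty acids from glucose as well as burning them, and genes of this pathway ran lower in NZO with a large spread among the NZO arrays. Of 23 genes of fatty acid and triglyceride synthesis, 5 fell (21.7%), none rose, 21 had a negative difference, and the median was -0.62. Acaca, the carboxylase of the first committed step, had levels of 7.98, 8.74, 7.29 and 8.57 in NZO, against 9.39, 9.003, 9.17 and 9.33 in B6 (2.11-fold lower, adjusted p = 0.0467). Scd1, the main desaturase, had levels of 7.61, 7.28, 6.13 and 7.98 in NZO, against 8.47, 8.52, 8.75 and 8.94 in B6 (-1.42, SE 0.36, adjusted p = 0.0335). Me1, the malic enzyme that supplies NADPH (-1.498), the elongase Elovl6 (-1.38) and the triglyceride synthase Dgat1 (-0.48) were the others called.

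NZO 003 was the lowest NZO array for all 5 of these genes. The NZO spread was wide for Fasn, the fatty acid synthase, at 4.91, 6.48, 2.90 and 6.06 in NZO, against 7.18, 6.99, 7.06 and 7.32 in B6, which did not pass despite strains that did not overlap (-2.05, SE 0.70, adjusted p = 0.091). The citrate lyase Acly had levels of 7.23, 8.95, 6.04 and 8.26 in NZO and 9.31, 8.87, 8.82 and 9.67 in B6 and overlapped. The list's count of lower genes was 0 without NZO 009, B6 010, B6 011 or B6 015, 1 without B6 009, 3 without NZO 003, 4 without NZO 007 and 8 without NZO 011. Over the 5 genes, adjusted p with 1 array left out reached between 0.0765 and 0.128 at most.

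Glycolytic enzymes supply the brown fat cell with pyruvate from glucose. Of 27 genes of glycolysis and glucose use, 12 fell (44.4% beside 8.06%) and none rose, with a median of -0.49. With slide as a fixed block 1 gene of the list was called lower. The muscle isoforms Pgam2 and Eno3 were among the 12, and the other 10 were not muscle-high. Pkm, pyruvate kinase, had levels of 6.21, 6.81, 6.04 and 6.67 in NZO, against 7.83, 7.72, 7.82 and 7.88 in B6, with no overlap (2.6-fold lower, adjusted p = 0.00132). Gapdh had levels of 8.65, 9.25, 8.27 and 8.98 in NZO, against 9.75, 9.52, 9.93 and 9.87 in B6 (1.97-fold lower, adjusted p = 0.0162). One of the 12, Pgk1, rests on a probe that the array file places on chromosome 3 (-0.91), while RefSeq lists the gene on chromosome X. The Pgk1 probe on chromosome X gave -0.21 and did not pass.

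Hk2, the insulin-induced hexokinase, was called although the strains overlapped, with 2.70, 4.27, 2.67 and 2.75 in NZO, against 4.59, 3.88, 4.64 and 4.83 in B6. NZO 011 stood far above the other NZO arrays, and the call ended without NZO 009, NZO 003, NZO 007, B6 010, B6 015 or B6 009 (adjusted p 0.0958 to 0.128). The glucose transporter Slc2a4 (-0.39), Hk1 (0.17) and Ldha (-0.37) did not pass. Without NZO 009 the list had 8 lower genes and without NZO 011 it had 17. With the 6 arrays of scan day 2 only, 6 were lower. NZO 011 was the highest NZO array for Pkm, Gapdh, Hk2, Fasn, Acly and Acaca alike.

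**Figure D3:**
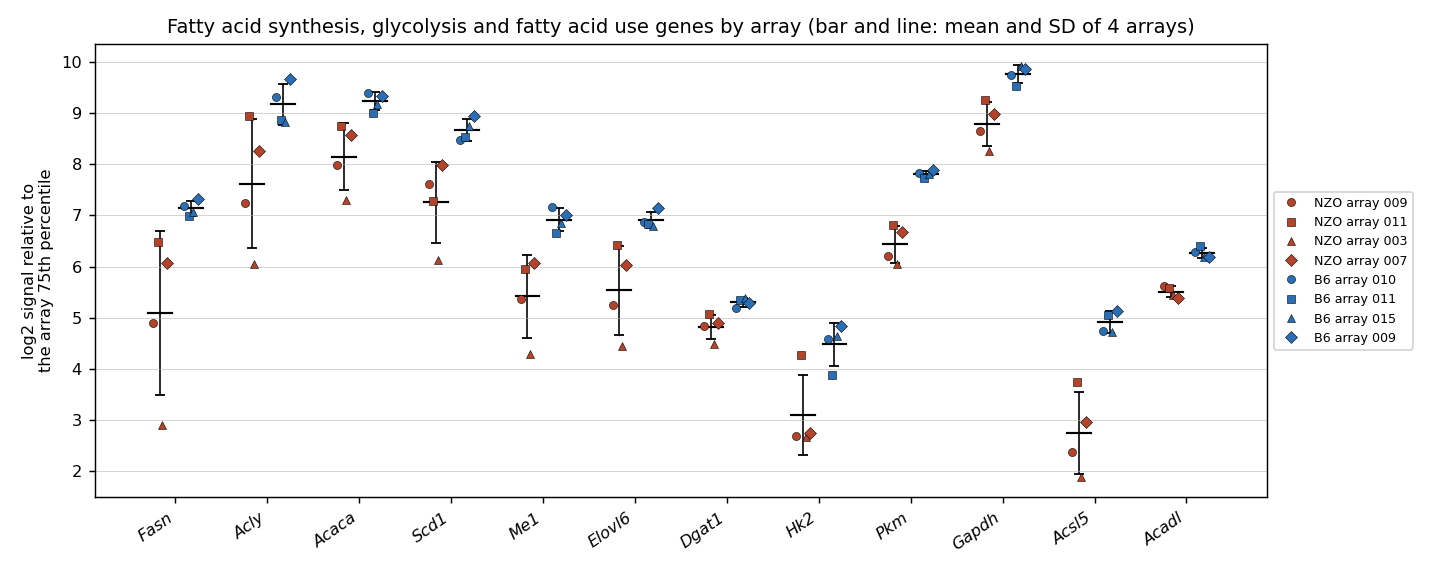
Levels of 12 genes of fatty acid synthesis, glycolysis and fatty acid use (log2 signal relative to the array's 75th percentile) on each NZO array, left, and each B6 array, right, with the mean and SD of 4 arrays. B6 arrays lie close together, while NZO 003 is low and NZO 011 high for Fasn, Acly and Acaca.

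Most genes of the machinery that burns fatty acids were not called. Of 23 genes of mitochondrial fatty acid oxidation 1 rose (4.35%) and 4 fell (17.4%, beside 8.06% of all genes). Of the 23, 19 had a negative difference, with a median of -0.18. Of 26 respiratory chain and ATP synthase genes 1 fell (3.85%), 24 had a negative difference and the median was -0.11. Of 14 citric acid cycle genes 1 rose and 1 fell (7.14% each), and 7 had a negative difference. Acsl5, which activates fatty acids, had levels of 2.37, 3.74, 1.89 and 2.97 in NZO, against 4.73, 5.06, 4.72 and 5.12 in B6 (4.49-fold lower, adjusted p = 0.00553). Acadl, the long-chain dehydrogenase, was evenly lower, at 5.61, 5.58, 5.44 and 5.39 in NZO, against 6.28, 6.39, 6.19 and 6.20 in B6 (1.69-fold, adjusted p = 0.00102). Hadha, a subunit of the trifunctional protein, was lower too (-0.45).

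Oxct1, which lets a tissue use ketone bodies, was higher, at 6.18, 5.93, 6.08 and 6.02 in NZO, against 5.58, 5.45, 5.32 and 5.25 in B6 (1.57-fold, adjusted p = 0.00404). Cpt1b, the carnitine transferase that admits fatty acids to mitochondria, did not pass (-0.20, 95% interval -0.45 to 0.06). Fh1, fumarase, was 1.61-fold higher by its brighter probe, while another probe gave 0.01. Dlst, a subunit of 2-oxoglutarate dehydrogenase, was lower (-0.39), and Sdha, of succinate dehydrogenase, was 1.24-fold lower. The call of Sdha ended without any 1 of the 8 arrays (adjusted p 0.058 to 0.0855), that of Hadha without any 1 but NZO 007 (0.0653 to 0.135), and that of Dlst without NZO 009 (0.054).

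Of 24 lipid uptake and storage genes 3 were higher and 3 lower, 12.5% each beside 7.54% higher and 8.06% lower of all genes. Higher were Lpl, the lipase that frees fatty acids from circulating triglyceride (1.57-fold by its brighter probe, with -0.33 from another), and the droplet protein genes Cidec (1.47-fold) and Plin4 (1.43-fold). Lower were the fatty acid transport genes Slc27a1 (-0.66) and Slc27a2 (-1.34), and Fitm1, a muscle-high droplet gene well above background on no NZO array. With 1 array left out, the call of Lpl ended without NZO 009, NZO 003, B6 010 or B6 009, and that of Cidec without any array but NZO 003 or B6 015. The call of Plin4 ended without any array but NZO 007, and that of Slc27a2 without NZO 011, NZO 007, B6 010, B6 011 or B6 015 (adjusted p 0.0528 to 0.104 over the 4 genes). The lipases Pnpla2 (0.16) and Lipe (-0.15) and the droplet coat gene Plin1 (-0.01) did not pass.

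Brown fat also burns branched-chain amino acids, and 6 of 17 genes of their breakdown fell (35.3% beside 8.06%) while 1 rose. With arrays centred on the median 2 fell, and with quantile normalization 4. Pccb, a subunit of propionyl-CoA carboxylase, had levels of 2.86, 2.55, 2.90 and 2.73 in NZO, against 4.02, 3.93, 3.74 and 3.92 in B6 (2.21-fold lower, adjusted p = 2.84e-04). Its partner subunit Pcca was 1.5-fold lower, and Bcat2, the mitochondrial aminotransferase of the first step, 1.53-fold lower. The gene that rose was Bckdhb, of the branched-chain dehydrogenase, at 6.52, 6.65, 6.24 and 6.38 in NZO, against 5.91, 5.87, 5.85 and 5.74 in B6. The strains did not overlap for any of these 4 genes, which were taken from the called ones. Over all genes tested, they did not overlap for 22.1%.

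Of 19 antioxidant genes, 6 fell (31.6%) and 1 rose, and with arrays centred on the median 3 fell. Prdx3, the mitochondrial peroxiredoxin, had levels of 4.06, 4.34, 3.99 and 4.12 in NZO, against 5.07, 5.23, 5.15 and 5.13 in B6 (2.03-fold lower, adjusted p = 3.18e-04). Gstm1, a glutathione transferase, was 2.17-fold lower by a probe placed on chromosome 5, while RefSeq lists the gene on chromosome 3. Another Gstm1 probe gave a difference of -2.44. Gpx1, a glutathione peroxidase, was 1.5-fold lower. The gene that rose was Nnt, the mitochondrial transhydrogenase, which was muscle-high and so belongs with the genes set apart. It had levels of 0.05, -0.00, -0.15 and -0.51 in NZO, against -0.55, -0.90, -1.07 and -1.20 in B6 (1.71-fold, adjusted p = 0.0207), and the call ended without NZO 009, NZO 011, NZO 003, B6 015 or B6 009 (adjusted p 0.0526 to 0.065).

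Genes of hormones and secreted factors moved both ways, 4 of 17 higher (23.5%, beside 7.54%) and 3 lower (17.6%, beside 8.06%). Lep, for the satiety hormone leptin, had levels of 1.76, 2.47, 2.70 and 1.29 in NZO, against -0.66, -0.48, -0.73 and 1.19 in B6 (4.66-fold, adjusted p = 0.0175). B6 009 stood well above the other B6 arrays and just under NZO 007, and the call ended without NZO 003, B6 011 or B6 015 (adjusted p 0.0503 to 0.0511). Resistin, Retn, another white fat hormone gene, ran the other way, at 3.78, 4.15, 3.60 and 3.85 in NZO, against 5.29, 5.48, 5.13 and 5.74 in B6 (2.96-fold lower, adjusted p = 5.14e-04). Adiponectin, Adipoq, did not pass (0.28, 95% interval -0.00 to 0.56).

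The bone morphogenetic protein genes were divided. Bmp4, which favours fat cell commitment, had levels of 0.32, 0.41, 0.58 and 0.37 in NZO, against -1.35, -0.58, -1.43 and -1.26 in B6 (2.98-fold, adjusted p = 9.86e-04). Bmp8b, made by active brown fat, had levels of -4.28, -3.42, -4.40 and -4.74 in NZO, where 1 array was well above background, against -2.62, -2.62, -1.83 and -2.45 in B6, where all 4 were. Bmp7, a brown fat differentiation factor, was 1.73-fold lower, though not called without NZO 009 (adjusted p = 0.0548). Gdf15, a stress-induced factor that lowers food intake, had levels of -2.51, -1.90, -2.23 and -2.67 in NZO, against -3.57, -5.17, -4.77 and -3.95 in B6, where 2 arrays were well above background.

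In insulin signalling 2 of 21 genes rose and 1 fell, a share near that of all genes. Grb14, an adaptor that inhibits the insulin receptor, had levels of 3.56, 3.60, 3.84 and 3.23 in NZO, against 2.76, 2.34, 2.02 and 2.80 in B6 (2.11-fold, adjusted p = 0.00943). Its relative Grb10 was 1.38-fold higher, a call that ended without any of 6 single arrays (adjusted p 0.063 to 0.0855; NZO 009, 011 and 003, B6 011, 015 and 009). Mtor, the kinase of growth control, was 1.78-fold lower. The substrate genes Irs1 (-0.29) and Irs2 (-0.99) did not pass. Limma called none of 15 stress and unfolded protein response genes, of which 3 had an unadjusted p under 0.05, and of 15 clock genes 1 fell.

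Cell cycle genes were higher in NZO. Of 23 tested, 15 rose (65.2% beside 7.54% of all genes), none fell, and the median was 0.97. Of 11 genes of mitosis, 8 rose (median 1.46), and of 12 of DNA replication 7 rose (median 0.52). Birc5, which acts at dividing chromosomes, had levels of 0.61, 0.45, -0.12 and 0.26 in NZO, against -1.51, -1.55, -1.52 and -1.40 in B6, with no overlap (3.47-fold, adjusted p = 1.78e-04). Cdk1, a kinase that starts mitosis, was higher by the probe tested, which was well above background on 4 NZO arrays and no B6 array. Another Cdk1 probe, not tested, was well above background on some but not all B6 arrays, so no fold is given.

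Rrm2, the ribonucleotide reductase subunit made in S phase, was 3.14-fold higher, and Tk1, thymidine kinase, 3.14-fold. The proliferation marker Mki67 had levels of -0.25, -0.19, -0.76 and -0.07 in NZO, against -1.81, -1.40, -1.47 and -1.46 in B6. Top2a, a topoisomerase well above background on 1 B6 array, had levels of -3.01, -3.37, -3.44 and -3.56 in NZO, against -6.20, -4.19, -5.69 and -4.19 in B6. It was called higher, and that call was lost without any 1 of the NZO arrays, B6 010 or B6 015 (adjusted p 0.0596 to 0.111). Mcm4, a helicase subunit of DNA replication, did not pass (0.10). Within slide 3 the median of the list was 0.96, and with slide as a fixed block 1 gene was called.

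One replication gene, Mcm3, and the RNA-binding protein gene Rbm45 gave opposite calls from overlapping probes. These sequences show the letters that differ between the 2 probes of each gene. For each, 30 bases of the stretch where the probes overlap are printed 5′ to 3′ from the array's own probe table, with mismatched letters in capitals, and positions within the 30 bases are counted from 1 at the 5′ end. The Mcm3 window is chr1:20793149-20793178 on the minus strand and the Rbm45 window chr2:76221770-76221799 on the plus strand.
Mcm3 probe with a difference of 1.21: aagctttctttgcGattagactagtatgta
Mcm3 probe with a difference of -0.44: aagctttctttgcAattagactagtatgta
Rbm45 probe with a difference of 2.84: ttagagaaataCgttgtcatgtatAgTaga
Rbm45 probe with a difference of -1.72: ttagagaaataTgttgtcatgtatGgCaga

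The Mcm3 probes differ by G14A and the Rbm45 probes by C12T, A25G and T27C, each from the first printed probe to the second. Both signs were called for both genes (adjusted p over probes at most 0.0296). Among 61 pairs of probes of a gene that overlap by at least 30 bases with 1 to 3 mismatches, these were the only 2 pairs called in opposite directions, and among 227 overlapping pairs without a mismatch there was none. The median gap between the 2 differences of a pair was 0.04 with 1 to 3 mismatches and 0.07 with none, so a mismatch did not go with a gap in most pairs. Over all 5734 genes with several tested probes, 587 had at least 2 called probes, and in 63 of these the probes disagreed in sign.

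Calls among inflammatory mediators were few and ran one way, with 4 of 10 tested genes higher (40%, beside 7.54% of all genes) and none lower. Of the 17 genes listed, Il1b, Il6, Il1rn, Ccl3, Cxcl1, Saa3 and Spp1 did not pass the background filter in either strain and were not tested. Summed on the linear scale like the muscle list, this list was not higher in NZO. It came to 26.8 to 45.2 in NZO and 37.2 to 50.8 in B6, ranges that overlap. Tnf, the tumour necrosis factor gene, stood well above background in NZO only, where it was at least 2.5-fold higher with an adjusted p of 0.00139. The chemokine gene Cxcl10 had levels of 0.77, -0.24, 0.36 and 1.499 in NZO, against -1.003, -1.65, -1.38 and -0.25 in B6, and Ccl2 levels of -1.01, -1.73, -0.82 and -0.55 in NZO, against -2.27, -2.20, -2.76 and -1.86 in B6. NZO 011 was the lowest NZO array for both. Vcam1, an adhesion gene, was 1.57-fold higher. Without NZO 009 or NZO 003 the list had 2 higher genes, since the calls of Cxcl10 and Ccl2 ended (adjusted p 0.0552 to 0.0561 for Ccl2). The call of Cxcl10 also ended without NZO 007, B6 010, B6 011 or B6 015 (adjusted p 0.0501 to 0.0835 over the 6 arrays). Ccl5 did not pass (0.20).

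Interferon-induced genes held extreme values in both directions, 7 of 24 higher (29.2%, beside 7.54%) and 3 lower (12.5%, beside 8.06%). With arrays centred on the median 4 were higher. Ifi202b, of the p200 family of DNA sensors (chr1:175892953-175893982), had levels of 1.05, 0.43, 1.12 and 1.21 in NZO and was well above background on no B6 array, at least 38.5-fold higher. Of 4 tested members of the family 2 were higher, Ifi202b and Ifi204, and 2 lower, Mndal and Ifi203. Mndal had levels of -4.18, -5.64, -4.26 and -4.59 in NZO, where 1 array was well above background, against 0.75, 0.83, 0.67 and 0.60 in B6. Ifi203 was 1.83-fold lower by the probe used. Another Ifi203 probe gave 2.25, and with the mean of its probes the difference was 0.29 (adjusted p = 0.155).

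The antiviral GTPase genes Mx1 and Mx2 also ran apart. Mx1 had levels of -0.42, -0.85, 0.44 and 0.60 in NZO, against -3.17, -3.17, -4.23 and -2.93 in B6, where 3 arrays were well above background. Mx2 was well above background on no NZO array and at -0.79, -1.43, -1.25 and -0.81 in B6, at least 10.3-fold lower. Isg15, a common interferon target, did not pass (0.17), and the median of the list was 0.08.

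Antigen presentation split by class. Of 8 class II genes 4 fell (50%, beside 8.06% of all genes). H2-Ab1 stood at 2.68, 2.68, 2.50 and 3.08 in NZO, against 4.74, 5.02, 4.60 and 4.75 in B6 (4.13-fold lower, adjusted p = 7.06e-05). H2-Aa was 2.21-fold and H2-DMb1 1.92-fold lower. The class II pseudogene H2-Ea-ps was the exception, well above background on every NZO and no B6 array and at least 4.33-fold higher. Of 8 class I genes 2 rose (25%, beside 7.54% of all genes). They were B2m, the shared light chain (7.03, 6.91, 6.90 and 7.19 in NZO, against 6.19, 5.90, 5.86 and 6.48 in B6), and the peptide transporter gene Tap2 (1.54-fold). The H2 genes differ in sequence between strains, so a probe may bind their alleles unequally, which was not tested.

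Markers of other cells of the depot are given for the whole lists. Of 14 macrophage markers 1 rose (7.14%, near the 7.54% of all genes). It was Trem2 (-1.66, -1.47, -1.37 and -1.76 in NZO, against -2.58, -3.34, -3.001 and -2.73 in B6), while Cd68 (0.05), Csf1r (0.21) and Adgre1 (0.30) did not pass. The summed macrophage list ranged from 36.7 to 44.9 in NZO and from 35.2 to 43.3 in B6, in multiples of the array's 75th percentile. Of 4 B cell markers Cd22 rose (1.05, 1.06, 0.89 and 1.34 in NZO, against -0.72, -1.09, -0.60 and -0.55 in B6) without its fellow markers, and of 6 T cell markers Cd3d fell (-1.25). The call of Cd3d ended without NZO 003 or B6 011 (adjusted p 0.0541 to 0.0552). Limma called none of 9 endothelial, 5 mast cell, 5 nerve and 5 red blood cell markers, of which 0, 2, 2 and 0 in that order had an unadjusted p under 0.05.

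Of 7 markers of mural cells, the contractile cells around vessels, 4 fell (57.1%, beside 8.06% of all genes). Cnn1 (-0.88), Pdgfrb (-0.86), Acta2 (-0.58) and Tagln (-0.47) were lower, with a summed list of 41.7 to 52.7 in NZO and 50.2 to 62.5 in B6, ranges that overlap. That count was 1 without NZO 003, NZO 007 or B6 011, 2 without B6 010 or B6 015, 0 with scan day 2 only and 1 with arrays centred on the median. Ccl19, a chemokine gene of lymph node stroma, was higher by 5.48 (2.90, 1.25, 2.87 and 2.09 in NZO, against -2.41, -2.64, -4.24 and -3.50 in B6, with 3 arrays well above background), and of its 3 probes another gave 2.80. It was the one called among 2 tested markers of that tissue. Extracellular matrix genes showed 1 of 20 higher (5%) and 2 lower (10%), near the shares of all genes.

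Liver transcripts were also present. Alb, for serum albumin, had levels of -2.07, -1.58, 0.83 and -2.31 in NZO and 0.59, -1.57, -2.91 and -1.67 in B6, so NZO 003 and B6 010, the 2 arrays of scan day 1, stood above the rest for this gene. The summed liver list ran from 7.90 to 21.5 in NZO and from 16.7 to 39.4 in B6, highest on B6 011, so it did not follow Alb. The part of these transcripts in the other results was not tested. Of 9 liver markers 2 fell (22.2%, beside 8.06% of all genes), Cyp2e1 (-1.90) and Apoa2 (-0.62). The call of Cyp2e1 ended without NZO 009, 011 or 003, or B6 011 or 015, and that of Apoa2 without NZO 009, 011 or 007, or B6 010, 015 or 009 (adjusted p 0.0515 to 0.0991).

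**Figure D4:**
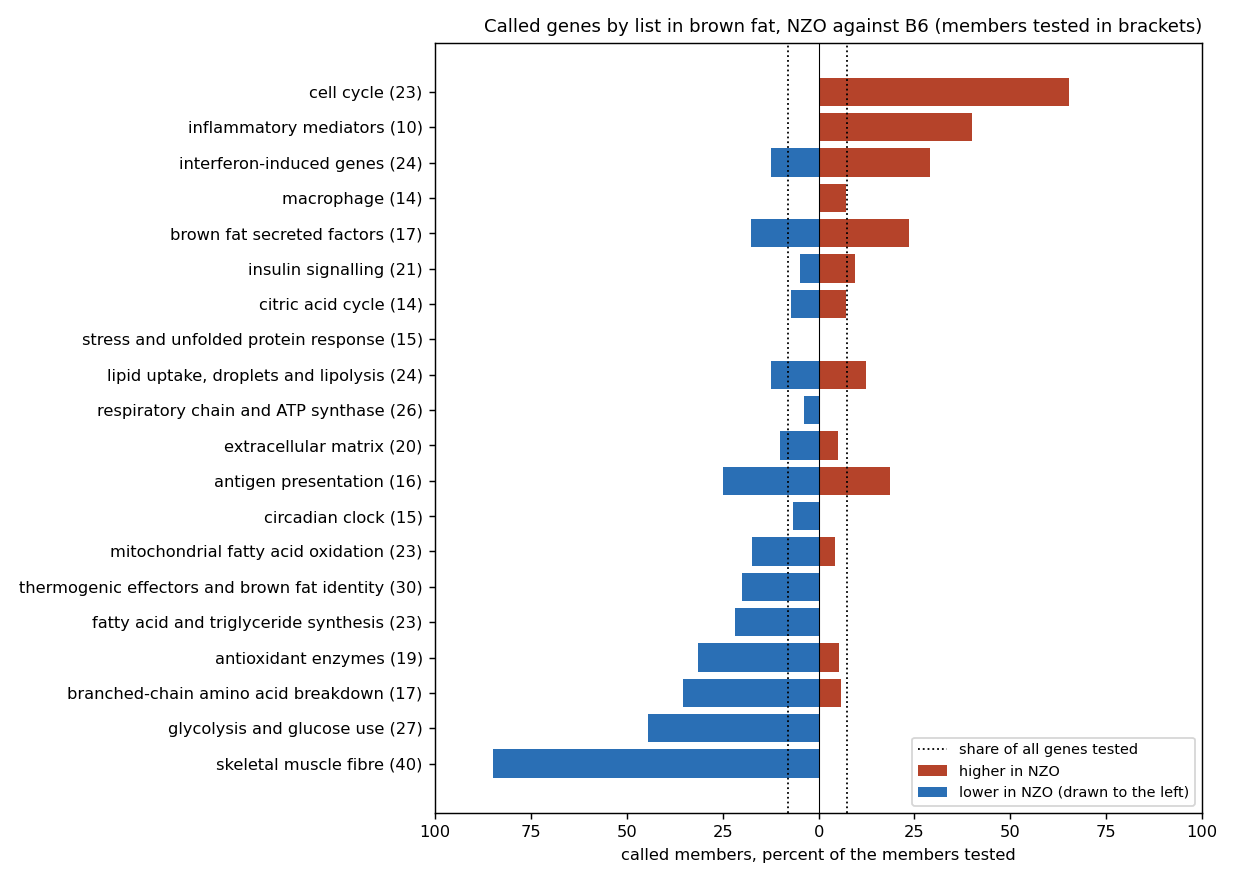
Members called in each list with at least 10 tested genes, as a percentage of the members tested, with genes higher in NZO to the right and lower in NZO to the left, and dotted lines at 7.54% and 8.06%, the shares of all genes tested. Cell cycle genes extend furthest to the right and skeletal muscle fibre genes furthest to the left, while respiratory chain and stress genes stay within the lines.

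The highest differences given next, outside the muscle-high set, were of genes that belong to none of these lists. Some list members had larger differences but were not well above background on all 8 arrays. Examples are Ifi202b (7.51) and Ccl19 (5.48), and at the low end Mndal (-5.38). Among named genes measured well above background on all 8 arrays, Gchfr, which regulates the first enzyme of biopterin synthesis (chr2:118998049-118998108), came first with 5.05, 5.79, 4.46 and 5.71 in NZO, against 0.65, 0.41, 0.57 and 0.56 in B6 (26.1-fold, adjusted p = 2.89e-05). Olig1, a transcription factor gene known from the oligodendrocyte lineage, had levels of 0.80, 1.25, 1.05 and 0.68 in NZO, against -3.12, -3.42, -3.40 and -3.29 in B6. Its probe was well above background on no array of gonadal white fat or quadriceps of either strain. Rad51ap1, of DNA repair by recombination, was 11.4-fold higher, and Gzmk, a granule protease gene of T cells, 7.73-fold.

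Tox4 (difference 4.54), Tmem45a (4.17), Prom1 (4.14, and 3.86 from another probe), the small GTPase gene Rem1 (3.78) and Ugt1a6b (3.06) were the others, with Rbm45. Another Tox4 probe gave -0.20 (adjusted p over probes 0.299), so the gene's direction rests on 1 probe. Ugt1a6b lies in a family whose members share exons, so its signal is uncertain. All 10 calls held with any 1 array left out.

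At the low end stood Tfr2, transferrin receptor 2, an iron-sensing gene best known from liver (chr5:138028646-138028705), with -4.05, -3.79, -2.94 and -3.28 in NZO, against 0.83, 0.64, 0.64 and 1.01 in B6 (19.6-fold lower, adjusted p = 2.39e-05). Gpx8, a peroxidase of the endoplasmic reticulum, had levels of 0.39, 0.31, 0.49 and 0.19 in NZO, against 4.55, 4.63, 4.75 and 3.99 in B6 (17.6-fold lower). Pdk1, a kinase that restrains pyruvate dehydrogenase, had the smallest SE of the 10 lowest genes, at -1.27, -1.28, -1.29 and -1.24 in NZO, against 1.89, 1.70, 1.61 and 1.74 in B6 (8.02-fold lower, adjusted p = 9.02e-07).

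Pttg1, securin of the dividing cell, was 16.2-fold lower by 1 probe and lower by another (-3.67), against the direction of the cell cycle list. Grk3, a kinase that desensitises adrenergic and other receptors, was 9.5-fold lower (0.38, 0.95, -0.45 and 0.18 in NZO, against 3.67, 3.57, 3.24 and 3.57 in B6). A probe that keeps that gene's older name, Adrbk2, gave -3.49 and is counted as an entry of its own among the 10 lowest. Rab6b, a transport GTPase gene (-4.20), Slc25a17, a peroxisomal carrier gene (-3.68), Sbsn (-3.28) and the zinc finger gene Zfp780b (-3.13) completed the list, and all 10 calls held with any 1 array left out.

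The other tissues were measured on separate arrays, and their strain differences stand beside these. Of the 10 highest genes 6 were also over 1 log2 unit higher in NZO in both gonadal white fat and quadriceps (Gchfr, Tox4, Prom1, Rem1, Rad51ap1 and Rbm45). Of the 10 lowest, 5 were likewise lower in both (Rab6b, Pttg1, Slc25a17, Zfp780b and Pdk1). The B6 quadriceps arrays were uneven for some of these genes. For the 6 higher genes their SD ran from 0.49 (Prom1) to 2.63 (Gchfr, whose quadriceps difference was 1.56). Tfr2 (0.37 in gonadal white fat), Sbsn (-0.02) and Gpx8 (-0.88) had far smaller differences there. A limma fit of all 24 arrays tested the brown fat difference minus the gonadal white fat difference, and adjusted p was at most 0.0153 for these 3 genes. These genes were chosen for their brown fat difference, which that test uses too, and 14.6% of all genes tested passed it.

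**Figure D5:**
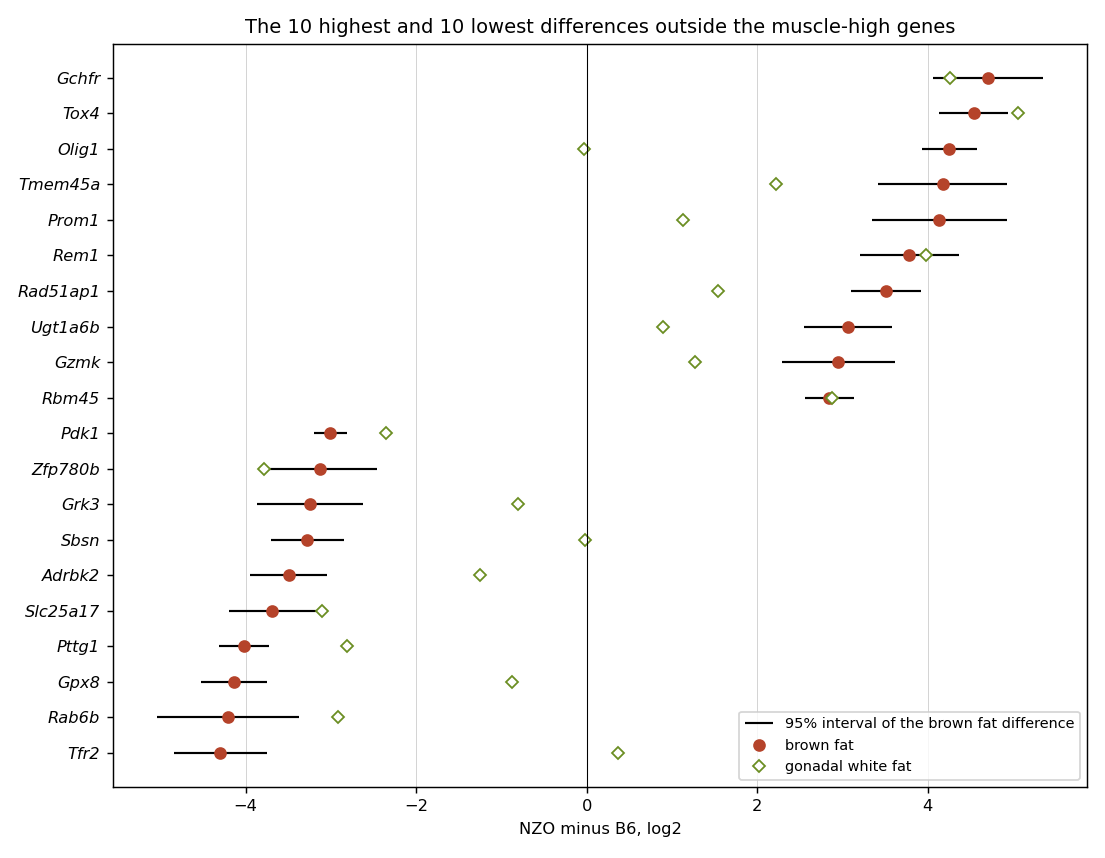
Strain differences (NZO minus B6, log2) of the 10 highest and 10 lowest genes outside the muscle-high set in brown fat, filled circles with 95% intervals from the brown fat fit, and in gonadal white fat, open diamonds. Gchfr, Tox4, Rem1 and Rbm45 lie close together in both fats, while Tfr2 and Sbsn are near 0 in gonadal white fat. The diamond of Olig1 is a difference between signals not well above background. Grk3 and Adrbk2 are probes of the same gene.

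Some genes were well above background on every array of 1 strain and no array of the other. Outside the muscle-high set there were 98 such genes for NZO and 74 for B6. A bound sets the mean of the bright strain against the lowest signal well above background on the arrays of the dim one, or the probe's own signal where that is higher. For NZO high bounds were those of Ifi202b, the olfactory receptor genes Olfr224 (at least 26.5-fold higher) and Olfr620 (14.8-fold), the potassium channel gene Kcng2 (12.9-fold) and Methig1 (10.1-fold). Olfr224 had levels of 0.35, 0.44, 0.59 and 0.28 in NZO, against -4.30, -5.35, -5.39 and -5.94 in B6, with no overlap.

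For B6 the highest bounds were those of the zinc finger genes Zfp982 (at least 39.2-fold lower in NZO), Zfp874a (23.3-fold) and Zfp607a (10.6-fold), Apol10b (19-fold), the purine phosphorylase gene Pnp2 (14.8-fold) and Mx2. Zfp874a had levels of -6.33, -5.84, -5.96 and -6.27 in NZO, against 0.06, 0.38, 0.11 and -0.15 in B6. Of the 98 NZO genes, 17 kept the same pattern in gonadal white fat and 5 in quadriceps, and of the 74 B6 genes 24 and 21 did. Ifi202b did not keep it in quadriceps, where 1 B6 array was well above background and the B6 arrays had an SD of 4.28. All 6 of the named B6 genes were over 1 log2 unit lower in NZO in both other tissues. Zinc finger, olfactory receptor and Pnp genes have near-identical copies, so their signals are uncertain, and a sequence difference under a probe was not tested for any of them.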

How the data were processed

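Total RNA labelled with Cy3 was hybridised to 1-colour Agilent mouse arrays. The deposited values are intensities: Agilent Feature Extraction 11.0.1.1, per the file headers, corrected the processed signal for background and spatial trend, while the submitters' processing notes name version 9.1. The deposited series table holds intensities on the linear scale that match the mean of the median spot signals, and it was used only as an alternative. From the files, spots of a probe were averaged and log2(processed signal) minus the array's 75th percentile was tested with limma 3.58.1 (lmFit and eBayes, R 4.3.3) on the 8 brown fat arrays, without covariates. The tables were made with Python 3.11.15, pandas 2.3.3 and numpy 2.4.6 and the figures with matplotlib 3.10.9. Control spots and outlier flags were left out. Probes were named through RefSeq accessions (27650 of 55681) and otherwise kept the name in the file.

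The members and gene lists were chosen with earlier results of these data known. Named genes were 10 well-known genes, the 10 highest and 10 lowest called differences with no overlap outside the muscle-high genes, the 6 highest bounds for each strain, up to 4 called members of each list by size with those that ran against the rest (all where 6 or fewer were called), and the brightest muscle-high gene of each role in B6. Some genes that this rule names are not reported here. Other genes given beside them were chosen after their values were seen. The alternatives were quantile and median scaling, normexp, the deposited series table, other filters and probe rules, the slide and the title number as blocks, all 24 arrays in 1 fit, and each array left out. Scan day as a block, scan day 2 only and the difference from gonadal white fat were added after the data were seen. The fit was tested on simulated data. Strains share the numbers 009 and 011 in the titles, which do not mark a shared animal. Deviations of same-numbered arrays correlated at -0.09 and 0.07, so the main fit has no block by number. It has none for slide or scan day either. Deviations of NZO 007 and B6 015, the pair on slide 3, correlated at 0.56, and those of NZO 003 and B6 010, of scan day 1, at 0.40. The correlation within slides that the random block used was 0.35. Slides other than slide 3 each held 1 strain, so slide and strain cannot be told apart there. The position of probes in exons or UTRs was not analysed here. The number of arrays limits the precision.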

Additional observations from a re-analysis of the deposited data

Results flagged for a closer look

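Among 228 sets of 4 arrays examined, 6 held an array set apart from its 3 fellows by a gap above the critical share of the range. Chance flags about 1 in 20, so the 6 are no more than chance would give. Lep stood at 1.19 on B6 009, against -0.73 to -0.48 on the other B6 arrays. Kcnk3 stood at 4.59 on NZO 007, against 4.81 to 4.83, and Sdha at 7.94 on B6 010, against 7.78 to 7.79. Pgam2 stood at -2.50 on NZO 009, against -3.70 to -3.62, and Hk2 at 4.27 on NZO 011, against 2.67 to 2.75. Gstm1 stood at 4.26 on B6 011, against 4.63 to 4.66.

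The strain difference in brown fat minus that in gonadal white fat passed limma's test for 15 of 30 genes examined (adjusted p at most 0.0425). Of all genes tested, 14.6% passed it. Grk3 and Adrbk2 name the same gene and are counted apart. Ucp1 had -8.18, since its difference was -0.39 in brown fat and 7.79 in gonadal white fat, and Cidea had -3.81 (-0.07 and 3.75). The other genes were chosen for their brown fat difference, which the test shares. Lower in brown fat relative to gonadal white fat were Tfr2 by -4.67, Gpx8 by -3.26, Sbsn by -3.26, Grk3 by -2.45, Adrbk2 by -2.24, Rab6b by -1.28, Pttg1 by -1.21 and Pdk1 by -0.66. Higher were Olig1 by 4.28, Prom1 by 3.01, Rad51ap1 by 1.97, Tmem45a by 1.96 and Gzmk by 1.68. The Olig1 probe was well above background on no gonadal white fat array, so its value holds no measured difference there.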

How the results depend on the processing

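The count of 3248 called genes, 2854 outside the muscle-high set, fell to 240 and 200 with the slide as a fixed block, which leaves slide 3 alone to compare the strains, and to 430 and 328 with the replicate block by the number in the title, which leaves only the pairs 009 and 011. With scan day 2 only it was 2069 and 1752, a setting added with the data in hand. With each array left out in turn the count ranged from 2198 to 3353, and from 1884 to 2950 outside the muscle-high set, lowest without NZO 009. Other alternatives stayed within 1.5 times of the count, from 2398 with no filter on dim probes to 3497 with scan day as a block, likewise added later. Of 122 called genes named here, with Grk3 and Adrbk2 counted apart, 86 kept their call with any 1 array left out. The other 36 lost it at least once (adjusted p 0.0501 to 0.135). With the mean of the gene's probes, 2 differences changed sign, Ifi203 at 0.29 and Sparc at -1.06, since their probes disagree. The cause of other shifts was not tested. A probe dim in 1 strain gives only a bound, and 4 arrays a strain limit what small differences can be called.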

Other observations

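Outside the muscle-high set, the share of tested genes that limma called ran from 10.2% on chromosome 16 (64 of 628) to 19.1% on chromosome 17 (195 of 1023), which holds the H2 genes. Of genes with several tested probes, 13 had probes called at least 2-fold in both directions.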
